A study of Mus musculus with 27 samples.

Results

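The liver X receptors (LXR), their partners the retinoid X receptors (RXR) and 4 proteins that tune their output were followed as mRNA in 3 kinds of primary mouse cell. The 9 genes were chosen by name, with earlier results of these data known, out of 55487 genes in the files. They are the LXR genes Nr1h2 (LXRβ) and Nr1h3 (LXRα) and the RXR genes Rxra, Rxrb and Rxrg. The others are the corepressor genes Ncor1 and Nrip1 and the coactivator genes Ncoa1 and Ncoa5. All 9 had a row of counts in every library, but Rxrg was too low to be tested in microglia and in macrophages of bone marrow. The series compared cells given 10 µM 24(S)-saringosterol, a plant and algal sterol, or 1 µM of a synthetic compound with cells given only the ethanol vehicle. Each treatment lasted 24 h and was given to primary hepatocytes, to primary microglia and to bone marrow-derived macrophages (BMDM), with 3 libraries in each of the 9 groups and 27 in all. The synthetic compound, abbreviated GW below, appears in the labels under the spellings GW3596, GW3964 and GW3965, of which the last is the name of a well-studied LXR agonist. The labels name no genetic alteration. They also leave unsaid whether replicate libraries stem from different animals or cultures, so the p-values describe the spread between libraries, which may be technical.

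LXR proteins are nuclear receptors that bind oxidised sterols and sit on DNA as a pair with an RXR, on repeats of a short half-site. Without ligand the pair is held silent by corepressor complexes, of which Ncor1 encodes a scaffold, and with ligand it takes up coactivators such as the product of Ncoa1. In macrophages and microglia the target genes move cholesterol out of the cell, and in hepatocytes they drive fatty acid synthesis and the removal of sterols. Nr1h3 is known to be abundant in liver and macrophages, while Nr1h2 is found in most tissues.

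Libraries held 30295862 to 41040268 counts in genes. Per the labels' protocols the microglia were shaken off mixed glial cultures, the BMDM were grown with M-CSF, and the hepatocytes were plated on collagen and treated in a different serum-free medium, so that medium and cell type cannot be told apart between hepatocytes and the other cells. The 9 hepatocyte markers summed to 9980 CPM (counts scaled to the library total) in vehicle-treated hepatocytes, 0.119 CPM in microglia and 0.561 CPM in BMDM. The 10 macrophage markers summed to 355, 38100 and 30100 CPM in the same cells, and in hepatocytes the sum was mostly Cd68, at 347 CPM, with Csf1r at 0.692 CPM. Of the microglia markers, the vehicle-treated microglia held little P2ry12 (11.4 CPM) and Tmem119 (4.21 CPM), and Siglech was at 0. One library stood apart. Replicate 3 of saringosterol-treated BMDM differed from replicates 1 and 2 by a chi-square per degree of freedom of 33.5 and 32.3, against 3.61 to 11.5 for the other 25 pairs of replicates, and the fold changes named for that group over vehicle are given with and without it.

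The promoters of 3 receptor genes whose mRNA changed with a compound are shown here, from 250 bases before to 50 bases after a transcription start, as RefSeq gives them on GRCm38.p6. Each is read 5′ to 3′ on the gene's own strand, and the capital letter standing alone is the first transcribed base. Runs of 6 capitals are exact copies, on either strand, of the half-site AGGTCA that LXR and RXR bind.
Nr1h3, chr2:91195067-91195366, minus strand: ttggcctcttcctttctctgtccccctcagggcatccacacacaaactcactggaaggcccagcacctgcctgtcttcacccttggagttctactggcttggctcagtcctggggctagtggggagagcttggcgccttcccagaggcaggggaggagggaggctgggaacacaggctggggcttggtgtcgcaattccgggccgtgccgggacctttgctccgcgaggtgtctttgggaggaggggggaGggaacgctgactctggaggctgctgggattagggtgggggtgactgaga
Rxra, chr2:27709042-27709341, plus strand: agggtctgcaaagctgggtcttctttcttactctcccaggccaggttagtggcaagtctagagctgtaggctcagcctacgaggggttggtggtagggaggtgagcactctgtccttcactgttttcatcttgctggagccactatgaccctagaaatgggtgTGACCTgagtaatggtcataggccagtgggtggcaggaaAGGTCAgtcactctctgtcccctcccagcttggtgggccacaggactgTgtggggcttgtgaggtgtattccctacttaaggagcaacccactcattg
Rxrb, chr17:34031562-34031861, plus strand: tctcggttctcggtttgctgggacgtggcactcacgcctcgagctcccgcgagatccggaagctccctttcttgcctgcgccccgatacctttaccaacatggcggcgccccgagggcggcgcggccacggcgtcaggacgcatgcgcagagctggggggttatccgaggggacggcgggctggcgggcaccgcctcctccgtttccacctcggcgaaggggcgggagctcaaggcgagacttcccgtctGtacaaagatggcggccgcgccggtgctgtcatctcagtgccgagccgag
The printed starts of Nr1h3 and Rxra lie inside their genes, while that of Rxrb is at the upstream end of its gene. The printed Rxra window had 2 half-sites on opposite strands, and the printed windows of Nr1h3 and Rxrb had none. Of 32851 mouse promoters of this length in the same set, 16.3% held at least 1 exact half-site. A pair of half-sites on 1 strand with 4 bases between them, the arrangement LXR and RXR are known to prefer, had 3 mismatches at best in the Rxra window and 4 in the windows of Nr1h3 and Rxrb. Pairs with up to 3 mismatches occurred in 21.88% and pairs with up to 4 in 76.9% of all promoters. These windows differ in base composition, with 63.0% G and C at Nr1h3, 54.3% at Rxra and 68.7% at Rxrb, against a median of 52.7%. The other 12 windows of the 9 genes held 1 exact half-site between them, in a window of Rxrg. Rxra has a second window among those 12, further upstream, and the one printed was picked because it holds half-sites. The upstream Rxra window had 0, a best pair with 5 mismatches, and 83.0% G and C.

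The make-up of the LXR pair differed by cell type. Levels of different genes are compared in TPM, a share of all transcripts that allows for gene length, as deposited. Nr1h3 (ENSMUSG00000002108, GRCm38 chromosome 2, 91184061 to 91202834, minus strand) had 66.7, 66.3 and 63.6 TPM in the vehicle-treated hepatocytes, 23.4, 26.5 and 23 TPM in the microglia, and 120, 110 and 119 TPM in the BMDM. The 3 ranges did not overlap, and Nr1h3 had its highest level in BMDM and its lowest in microglia. On counts scaled by the TMM method, Nr1h3 was lower in microglia than in BMDM by a log2 difference of -2.36 ± 0.09 (SE), which is 0.194 times the BMDM level (edgeR adjusted p = 1.3e-20). It was higher in hepatocytes than in microglia by 1.12 ± 0.09 (edgeR adjusted p = 1.5e-13) and lower in hepatocytes than in BMDM by a log2 difference of -1.24 ± 0.08 (edgeR adjusted p = 2.7e-15). All 13 alternatives tried for each of these 3 differences kept its direction and its call.

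Nr1h2, by contrast, was close to even. Nr1h2 (ENSMUSG00000060601, chromosome 7, 44549616 to 44553951, minus strand) had 122, 109 and 121 TPM in vehicle-treated hepatocytes, 105, 105 and 104 TPM in microglia, and 101, 104 and 103 TPM in BMDM, and over all 27 libraries it ran from 93.8 to 122 TPM. The microglia and BMDM ranges met, at a log2 difference of -0.07 ± 0.06 (edgeR adjusted p = 0.3). In the hepatocytes the direction hung on the scaling: the log2 difference to microglia was -0.14 ± 0.06 on TMM-scaled counts (edgeR adjusted p = 0.021) and 0.24 on plain library totals. Plain totals move the median difference of all genes to 0.33 for hepatocytes against microglia and to 0.37 against BMDM, where TMM scaling gives -0.04 and -0.02. A small difference between hepatocytes and the other cells is therefore read against that shift.

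The ratio of Nr1h3 to Nr1h2 was 0.56 ± 0.04 in vehicle-treated hepatocytes, 0.232 ± 0.02 in microglia and 1.13 ± 0.07 in BMDM (mean of the TPM ratio per library ± SD, n = 3 each). BMDM carried slightly more LXRα than LXRβ message, and microglia carried mostly LXRβ message. Nr1h3 made up 35.9% ± 1.75 of the LXR message of hepatocytes, 18.8% ± 1.1 of that of microglia and 53.1% ± 1.55 of that of BMDM. The summed LXR message was 183 ± 7.21, 129 ± 2.08 and 219 ± 4.04 TPM in the same cells.

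**Figure D1:**
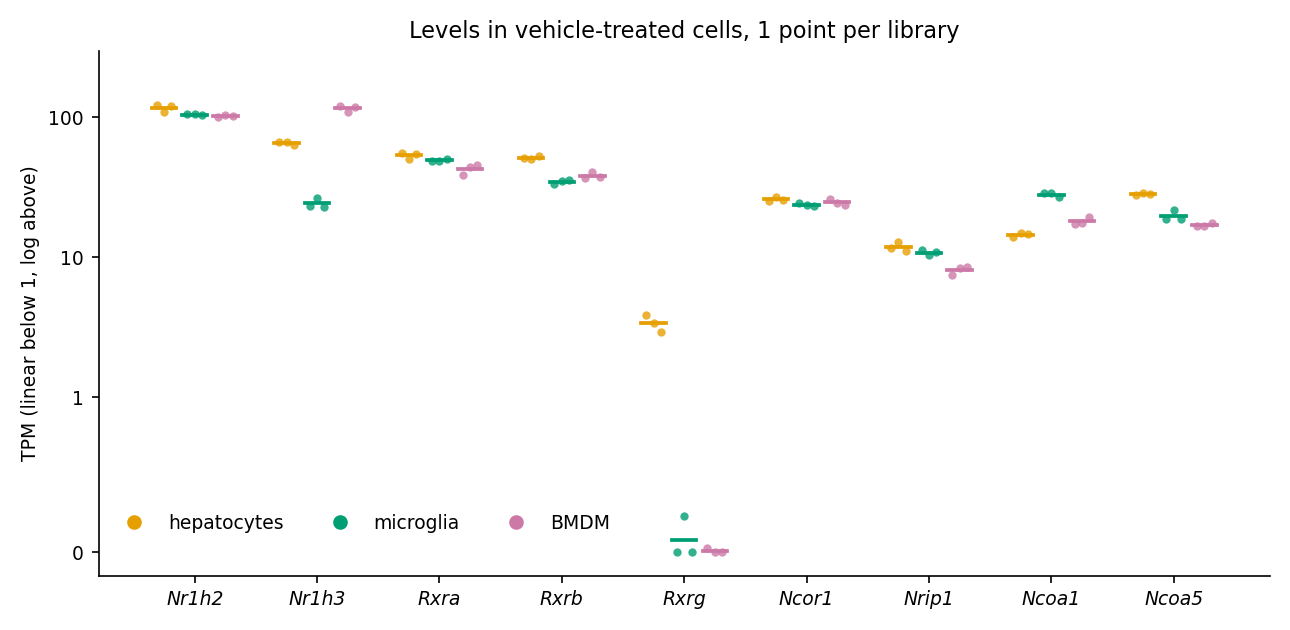
Levels of the 9 genes in vehicle-treated hepatocytes, microglia and BMDM, in TPM on an axis that is linear below 1 and logarithmic above. Each point is a library and each line a mean of 3. Nr1h3 is spread out by cell type, between 23 and 120 TPM, while Nr1h2 lies between 101 and 122 TPM throughout, and Rxrg is above 1 TPM in hepatocytes alone.

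Among the RXR genes, Rxra and Rxrb carried nearly all of the message. Rxra (ENSMUSG00000015846, chromosome 2, 27676440 to 27762957, plus strand) had 55.5, 50.8 and 54.5 TPM in vehicle-treated hepatocytes, 49.2, 49.2 and 50.3 TPM in microglia, and 38.8, 44.3 and 45.7 TPM in BMDM. Rxrb (ENSMUSG00000039656, chromosome 17, 34031812 to 34038399, plus strand) had 51.0, 50.5 and 52.9 TPM in hepatocytes, 33.6, 35.3 and 35.4 TPM in microglia, and 36.8, 40.4 and 37.7 TPM in BMDM. The ranges of Rxra and Rxrb overlapped in hepatocytes and in BMDM, whereas in microglia every Rxra value lay above every Rxrb value. Rxrb was lower in microglia than in BMDM, by a log2 difference of -0.24 ± 0.07 (edgeR adjusted p = 0.0032). For Rxra that difference was 0.11 ± 0.06 (edgeR adjusted p = 0.19). Rxrb was higher in hepatocytes than in microglia, by 0.25 ± 0.07 with TMM scaling (edgeR adjusted p = 0.0012) and 0.63 on plain totals. For Rxra that difference was -0.20 ± 0.06 with TMM scaling (edgeR adjusted p = 0.0052) and 0.18 on plain totals, so its direction is not settled.

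Rxrg, known as the RXR of muscle and some neurons, was a hepatocyte message here. Rxrg (ENSMUSG00000015843, chromosome 1, 167598384 to 167639623, plus strand) had 3.88, 3.40 and 2.94 TPM in vehicle-treated hepatocytes, 0, 0.233 and 0 TPM in microglia, and 0.0313, 0 and 0 TPM in BMDM. In counts it had 323 reads over the 3 vehicle-treated hepatocyte libraries, 7 over the microglia libraries, all of them in 1 library, and 1 over the BMDM libraries. Relative to the library totals, the hepatocyte level was 46.8 times that of microglia (exact 95% interval 22.4 to 117, for counting error only) and 302 times that of BMDM (53.9 to 12000). The edgeR adjusted p was 6.8e-09 for hepatocytes against microglia and 8.8e-10 against BMDM. Even so, Rxrg made up only 3.15% ± 0.434 of the RXR message of these hepatocytes.

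Of the coregulators, Ncoa1 differed most between cells. Ncoa1 (ENSMUSG00000020647, chromosome 12, 4247362 to 4477182, minus strand), the steroid receptor coactivator SRC-1, had 13.9, 15 and 14.7 TPM in vehicle-treated hepatocytes, 28.7, 28.6 and 26.9 TPM in microglia, and 17.2, 17.7 and 19.5 TPM in BMDM. None of these ranges overlapped, with microglia highest and hepatocytes lowest. Ncoa1 was higher in microglia than in BMDM by 0.53 ± 0.07 on the log2 scale (edgeR adjusted p = 3.6e-08). It was lower in hepatocytes than in microglia by a log2 difference of -1.27 ± 0.07 (edgeR adjusted p = 2.3e-18) and lower than in BMDM by a log2 difference of -0.74 ± 0.07 (edgeR adjusted p = 5e-12). The same 3 differences on plain totals were 0.56, -0.89 and -0.33, all still called.

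Ncoa5 (ENSMUSG00000039804, chromosome 2, 165000357 to 165034867, minus strand), another coactivator of nuclear receptors, had 27.7, 28.6 and 28.3 TPM in hepatocytes, 18.8, 21.7 and 18.8 TPM in microglia, and 16.7, 16.6 and 17.6 TPM in BMDM. It was higher in hepatocytes than in BMDM by 0.31 ± 0.07 on the log2 scale (edgeR adjusted p = 0.00021) and higher than in microglia by 0.20 ± 0.07 (edgeR adjusted p = 0.014). On plain library totals these differences of Ncoa5 were 0.72 and 0.58. The second TMM-scaled call was lost without vehicle-treated microglia replicate 1 or replicate 3, with an adjusted p of up to 0.079.

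The corepressor gene Ncor1 varied little. Ncor1 (ENSMUSG00000018501, chromosome 11, 62316426 to 62458541, minus strand), the nuclear receptor corepressor NCoR1, ran from 23 to 26.9 TPM over all 27 libraries, and its vehicle ranges in hepatocytes, BMDM and microglia overlapped from each cell type to the next. Nrip1 (ENSMUSG00000048490, chromosome 16, 76287400 to 76373827, minus strand), the ligand-dependent corepressor RIP140, had 11.7, 12.8 and 11 TPM in vehicle-treated hepatocytes, 11.2, 10.3 and 10.9 TPM in microglia, and 7.44, 8.39 and 8.47 TPM in BMDM. Nrip1 was higher in microglia than in BMDM by 0.31 ± 0.07 on the log2 scale (edgeR adjusted p = 0.00058). Ncor1 was lower in microglia than in BMDM by a log2 difference of -0.16 ± 0.05 (edgeR adjusted p = 0.012), a call lost without vehicle-treated BMDM replicate 1, with an adjusted p of 0.085. Between hepatocytes and microglia, Ncor1 stood at -0.19 with TMM scaling and 0.19 on plain totals, and Nrip1 at -0.18 and 0.20. For hepatocytes against BMDM, Ncor1 stood at -0.35 with TMM scaling and 0.05 on plain totals, and Nr1h2 at -0.22 and 0.19.

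Counted together, 5 of 9 genes passed an adjusted p of 0.05 between microglia and BMDM, where 46.5% of all 18979 genes tested did. All 9 passed between hepatocytes and microglia (4 higher and 5 lower), against 73.5% of all genes, and 6 passed between hepatocytes and BMDM (2 higher and 4 lower), against 75.2%. Hepatocytes differed from the other cells in most genes tested, so a count of called members is read against these shares of all genes. With 1 library left out, 6 to 9 passed between hepatocytes and microglia, the lost calls being among Nr1h2, Rxra, Ncoa5 and Nrip1, and 5 passed with no filter on low counts. Within vehicle-treated hepatocytes the order by TPM was Nr1h2, Nr1h3, Rxra, Rxrb, Ncoa5, Ncor1, Ncoa1, Nrip1 and Rxrg. In microglia it was Nr1h2, Rxra, Rxrb, Ncoa1, Nr1h3, Ncor1, Ncoa5, Nrip1 and Rxrg, with the ranges of Nr1h3 and Ncor1 overlapping. In BMDM it was Nr1h3, Nr1h2, Rxra, Rxrb, Ncor1, Ncoa1, Ncoa5, Nrip1 and Rxrg, with an overlap of Ncoa1 and Ncoa5 beside that of Rxra and Rxrb.

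In microglia, saringosterol raised Nr1h3 and lowered Rxrb and Ncoa1. These changes were measured within the cell type as CPM on TMM-scaled libraries. Nr1h3 had 26.7, 26.2 and 25.6 CPM with saringosterol, against 19.5, 22.3 and 19.5 CPM with vehicle. The treated values all lay above the vehicle values, for a log2 fold change of 0.36 ± 0.08, or 1.28-fold (edgeR adjusted p = 0.0021). Rxrb had 39.1, 37.4 and 34.9 CPM with saringosterol, against 44.4, 47.1 and 47.6 CPM with vehicle, with no overlap, and fell by 0.32 ± 0.06 on the log2 scale (edgeR adjusted p = 0.00033). Ncoa1 had 69, 71.4 and 63.3 CPM with saringosterol, against 81.8, 82.3 and 78.1 CPM with vehicle, and fell by 0.25 ± 0.05 (edgeR adjusted p = 0.00058). All 16 alternatives tried kept these 3 calls. The partner receptor Rxra had 109, 112 and 100 CPM against 103, 104 and 107 CPM with vehicle, which overlap (log2 fold change 0.03 ± 0.04, edgeR adjusted p = 0.77). Nr1h2 had 111, 110 and 105 CPM against 117, 118 and 118 CPM, all below vehicle but with an edgeR adjusted p of 0.087. Of the 8 genes tested, 1 rose and 2 fell, against 10.8% of 16065 genes that passed in either direction, and their median log2 fold change was -0.07 beside -0.003 for all genes.

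GW raised Rxra, Nrip1 and Nr1h3 and lowered Rxrb in microglia. Rxra had 127, 130 and 130 CPM with GW, against 103, 104 and 107 CPM with vehicle, and rose by 0.30 ± 0.04 on the log2 scale, or 1.23-fold (edgeR adjusted p = 2.9e-06). Rxrb had 38.4, 37.5 and 39.5 CPM with GW, against 44.4, 47.1 and 47.6 CPM with vehicle, and fell by 0.27 ± 0.06 (edgeR adjusted p = 0.00076). Neither pair of ranges overlapped, and both calls held in all 16 alternatives. The corepressor gene Nrip1 had 45.9, 48.3 and 46.0 CPM with GW, against 42.5, 39.7 and 42.2 CPM with vehicle, and rose by 0.17 ± 0.06 (edgeR adjusted p = 0.021), a call lost in 4 of 16 alternatives, with an adjusted p of 0.1 without GW replicate 2 and of 0.12 without vehicle replicate 2. Nr1h3 had 25.0, 21.3 and 24.8 CPM with GW, against 19.5, 22.3 and 19.5 CPM with vehicle, so that 1 GW library lay inside the vehicle range. Its rise of 0.22 ± 0.08 passed narrowly (edgeR adjusted p = 0.04). The call was lost in 8 of 16 alternatives, over which the adjusted p ran from 0.012 to 0.17: it was 0.17 without GW replicate 1 and without GW replicate 3, 0.14 and 0.12 without vehicle replicate 1 and replicate 3, and 0.05 without saringosterol replicate 2, which enters the shared estimate of spread. Of the 8 genes tested, 3 rose and 1 fell, beside 28.7% of all genes in either direction, and their median log2 fold change was 0.03.

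In terms of RXR make-up, Rxra took 64.4% ± 0.802 of the RXR message in saringosterol-treated microglia and 67.9% ± 0.643 in GW-treated microglia, against 58.7% ± 0.7 in vehicle-treated microglia (SD, n = 3 each). The 3 groups did not overlap. Nr1h3 took 24.3% ± 0.2 of the LXR message with saringosterol and 21.9% ± 1.39 with GW, against 18.8% ± 1.1 with vehicle. The summed RXR message stayed between 74.2 and 88.0 TPM over the 9 microglia libraries and the summed LXR message between 119 and 131 TPM.

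**Figure D2:**
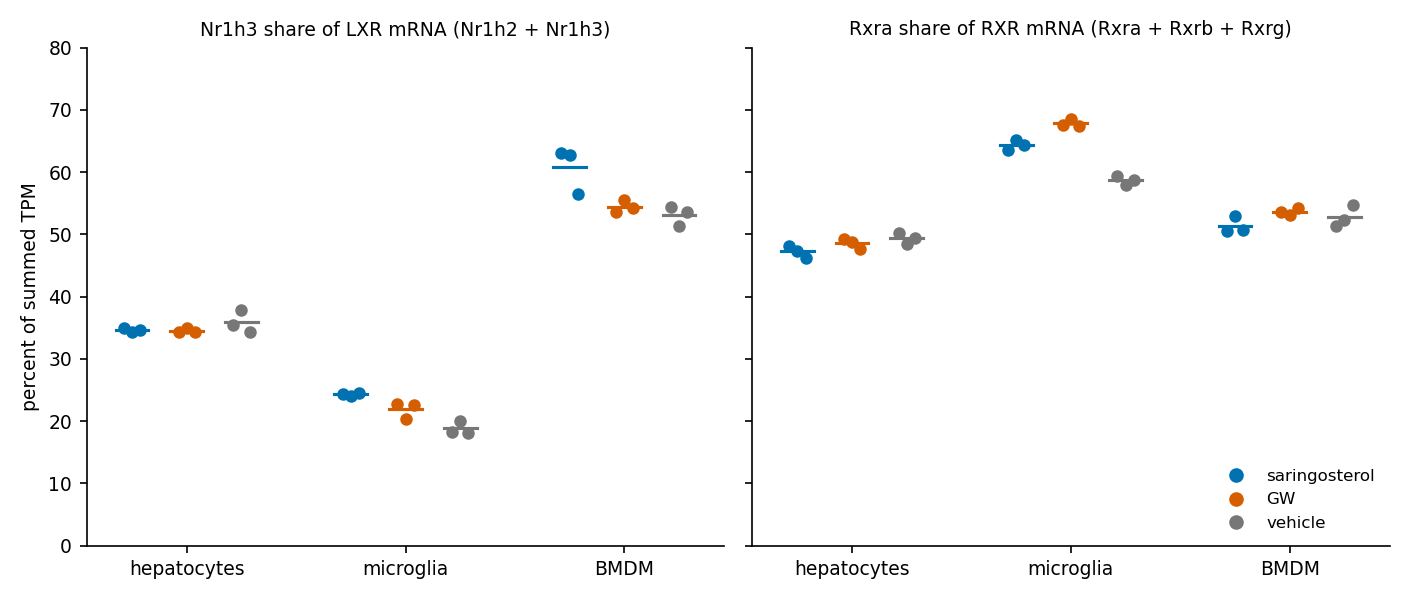
Share of Nr1h3 in the LXR message (left) and of Rxra in the RXR message (right), in percent of summed TPM, by cell type and treatment. Each point is a library and each line a mean of 3. Microglia have the lowest Nr1h3 share and the highest Rxra share, and their Rxra share is 64.4% and 67.9% with the compounds and 58.7% with vehicle.

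In BMDM, saringosterol raised Nr1h3, but the call hung on single libraries. Nr1h3 had 151, 153 and 111 CPM in saringosterol-treated BMDM, against 107, 97.6 and 106 CPM with vehicle, and the low value is that of replicate 3, the library that stood apart. The ranges did not overlap, for a log2 fold change of 0.42 ± 0.11, or 1.33-fold (edgeR adjusted p = 0.039). Without saringosterol replicate 3 the rise was 0.55 (edgeR adjusted p = 3.7e-07). Without any 1 of the other 8 BMDM libraries the adjusted p was 0.054 to 0.13 and the call was lost, as it was with limma-voom at 0.052. The log2 fold change stayed between 0.34 and 0.55 over all 16 alternatives, in which the adjusted p ran from 8.4e-09 to 0.13. None of the other 7 genes tested passed in BMDM with saringosterol: Rxra had 93.5, 86.5 and 79.5 CPM against 86.9, 98.6 and 102 CPM with vehicle (edgeR adjusted p = 0.19), and Rxrb had 57.6, 48.5 and 48.8 CPM against 51.9, 56.7 and 53.4 CPM (edgeR adjusted p = 0.63). Without saringosterol replicate 3 the adjusted p was 0.45 for Rxra and 0.86 for Rxrb by edgeR. The count of 1 of 8 stood beside 10.7% of 15416 genes, with a median log2 fold change of -0.05. Macrophage markers summed to 23000 to 24400 CPM in saringosterol-treated BMDM, against 29300 to 30900 CPM with vehicle. Lyz2, the lysozyme gene, held most of that gap, at 15900 CPM against 21400 CPM with vehicle. Every other marker of that list except Cd68 also had a lower mean with saringosterol, such as Csf1r at 1570 CPM against 2150 CPM. Cd68 had 1840 CPM against 1710 CPM. In bulk samples fewer cells of a type and less RNA per cell cannot be told apart. The part of that shift in the Nr1h3 result was not tested.

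GW left the same genes of BMDM without a call. By edgeR 0 of 8 passed, with 1 at an unadjusted p under 0.05, and DESeq2 and limma-voom called 0 each, where 10.4% of all genes passed by edgeR. That gene was Rxra, with 114, 104 and 113 CPM with GW against 86.9, 98.6 and 102 CPM with vehicle. All GW values lay above the vehicle values, at a log2 fold change of 0.20 ± 0.07 (edgeR adjusted p = 0.08), and the adjusted p was 0.026 without saringosterol replicate 3 and 0.043 without vehicle replicate 3. Rxrb, which fell in microglia, had 61.9, 57.7 and 60.3 CPM against 51.9, 56.7 and 53.4 CPM with vehicle, again all above (log2 fold change 0.15 ± 0.07, edgeR adjusted p = 0.2). For Nr1h3 the values were 118, 111 and 107 CPM against 107, 97.6 and 106 CPM (edgeR adjusted p = 0.59).

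**Figure D3:**
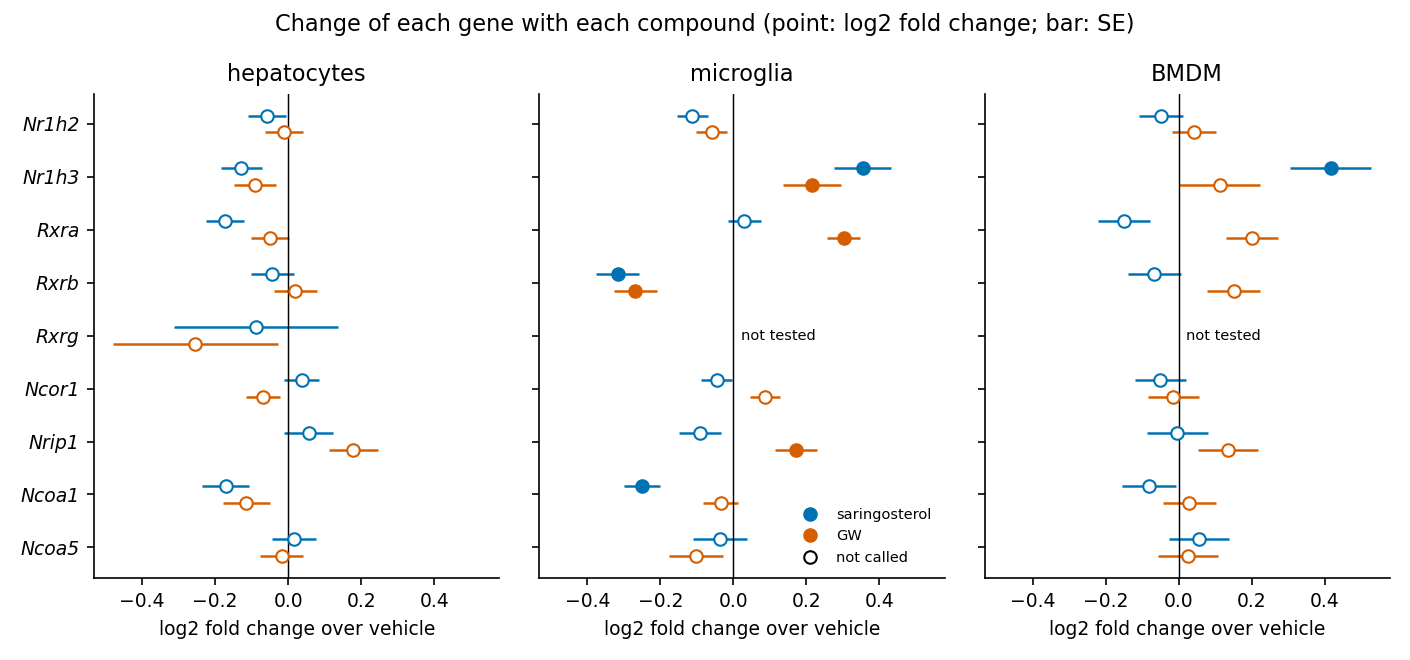
Log2 fold change over vehicle of each gene with each compound in the 3 cell types, with its SE. Filled points passed an edgeR adjusted p of 0.05 and open points did not. Filled points appear in microglia (3 for saringosterol and 4 for GW) and once in BMDM, for Nr1h3 with saringosterol.

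Hepatocytes gave no call for any of the 9 genes with either compound. With saringosterol, edgeR called 0, with 3 at an unadjusted p under 0.05, limma-voom called 0 and DESeq2 called 1, where 1.91% of 16098 genes passed by edgeR. The 1 DESeq2 call was Rxra, with 102, 109 and 110 CPM with saringosterol, against 127, 113 and 122 CPM with vehicle, at a log2 fold change of -0.17 ± 0.05 (edgeR adjusted p = 0.077), and 0.041 by DESeq2. Without vehicle replicate 2 its edgeR adjusted p was 0.014. Nr1h3 had 52.4, 54.1 and 54.8 CPM with saringosterol, against 60.7, 58.6 and 57.0 CPM with vehicle. Every treated value lay below every vehicle value, yet the log2 fold change of -0.13 ± 0.06 did not pass (edgeR adjusted p = 0.26). Ncoa1 had 37.5, 39.9 and 40.8 CPM against 43.1, 45.1 and 44.9 CPM (log2 fold change -0.17 ± 0.07, edgeR adjusted p = 0.18).

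With GW, edgeR called 0 in hepatocytes, with 1 at an unadjusted p under 0.05 and 0 by DESeq2 and by limma-voom, and 1.11% of all genes passed by edgeR. Nr1h3 had 56.3, 54.2 and 55.2 CPM with GW, against 60.7, 58.6 and 57.0 CPM with vehicle (edgeR adjusted p = 0.76). Nrip1, the gene at the low unadjusted p, had 54.6, 53.9 and 55.7 CPM against 48.7, 51.6 and 44.9 CPM (log2 fold change 0.18 ± 0.07, edgeR adjusted p = 0.35). Rxrg had 54 to 123 counts per library with GW and 74 to 132 with saringosterol, against 89 to 130 with vehicle. Its log2 fold changes of -0.25 and -0.09 had an SE of 0.23 and 0.22, so that only large changes of Rxrg were detectable. Each SE holds the spread between libraries as well as counting error. The LXR target Scd1, a fatty acid desaturase gene, had 3590 ± 321 CPM in the same GW-treated hepatocytes, against 939 ± 46.9 CPM with vehicle (SD, n = 3 each), and rose by 1.93 ± 0.05 (edgeR adjusted p = 1.4e-20).

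**Figure D4:**
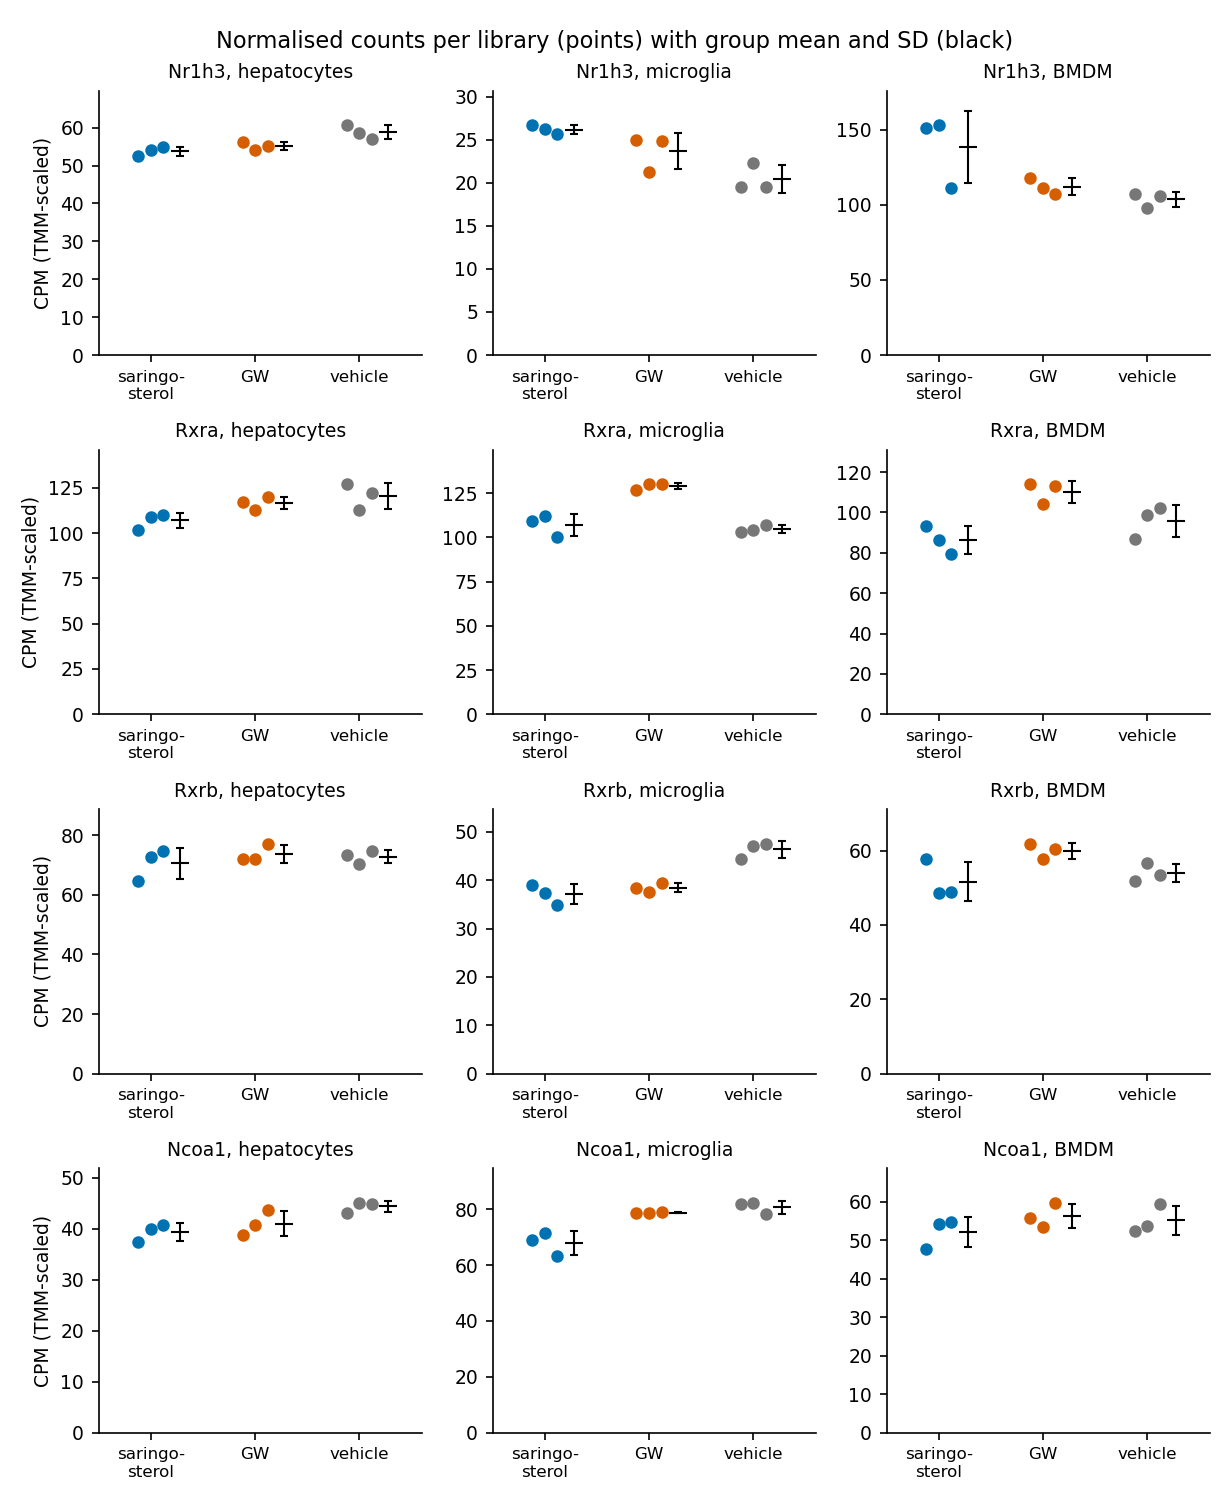
CPM of Nr1h3, Rxra, Rxrb and Ncoa1 in each library, by cell type and treatment, with the group mean and SD in black beside the points. Nr1h3 is 111 CPM in 1 saringosterol-treated BMDM library and 151 and 153 CPM in the others, and Rxrb of microglia lies between 34.9 and 39.5 CPM with the compounds and between 44.4 and 47.6 CPM with vehicle.

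Whether a response differed between cell types was tested as the difference of 2 log2 fold changes in 1 fit of all 27 libraries. The saringosterol response of Nr1h3 was lower in hepatocytes than in BMDM by a log2 difference of -0.59 ± 0.12 (edgeR adjusted p = 0.0011), held in all 18 alternatives, and was -0.72 without saringosterol BMDM replicate 3. It was the 1 gene of 9 to differ there, beside 10.1% of all genes. The same response was lower in hepatocytes than in microglia by a log2 difference of -0.52 ± 0.12 (edgeR adjusted p = 0.021), again 1 of 9, beside 1.18% of all genes. That call was lost in 7 of 18 alternatives, over which the adjusted p ran from 0.00015 to 0.095, among them the runs without saringosterol microglia replicate 1 or 2, vehicle microglia replicate 1 or 3, saringosterol hepatocyte replicate 1 and vehicle hepatocyte replicate 1. Between microglia and BMDM the saringosterol responses gave 0 calls by edgeR, with 1 at an unadjusted p under 0.05 and 0 by DESeq2 and by limma-voom, beside 2.02% of all genes by edgeR. For Nr1h3 that difference was -0.07 ± 0.12.

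The GW responses of Rxra and Rxrb differed between cell types. That of Rxrb was lower in microglia than in BMDM by a log2 difference of -0.43 ± 0.10 (edgeR adjusted p = 0.0027), with the fall in microglia and values above vehicle in BMDM. That of Rxra was lower in hepatocytes than in microglia by a log2 difference of -0.37 ± 0.09 (edgeR adjusted p = 0.0051). Both held in all 18 alternatives. Each was 1 of 9 genes, beside 9.71% of all genes for microglia against BMDM and 8.68% for hepatocytes against microglia. Between hepatocytes and BMDM, edgeR called 0 for GW, with 1 at an unadjusted p under 0.05, while DESeq2 called 1 and limma-voom 0, beside 4.74% of all genes by edgeR. That gene was Rxra, at -0.28 ± 0.09 (edgeR adjusted p = 0.068). Its adjusted p was 0.02 without vehicle BMDM replicate 3, 0.047 without GW BMDM replicate 2 and 0.034 without vehicle hepatocyte replicate 2.

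The compounds were also set against each other, at 10 µM for saringosterol and 1 µM for GW, so that dose and compound cannot be told apart. In microglia Rxra was lower with saringosterol than with GW by a log2 difference of -0.27 ± 0.04 (edgeR adjusted p = 2e-05), as were Nrip1 by a log2 difference of -0.26 ± 0.06 (edgeR adjusted p = 0.00068) and Ncoa1 by a log2 difference of -0.22 ± 0.05 (edgeR adjusted p = 0.0012). Ncor1 was lower by a log2 difference of -0.13 ± 0.04 (edgeR adjusted p = 0.019), a call lost in 6 of 16 alternatives with an adjusted p of up to 0.31, among them the runs without GW replicate 1 (0.063), GW replicate 2 (0.061) and saringosterol replicate 2 (0.082). These 4 of 8 genes stood beside 25.5% of all genes in either direction. For Nr1h3 the difference was 0.14 ± 0.08 (edgeR adjusted p = 0.21).

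In BMDM the 1 gene of 8 that differed between the compounds was Rxra, at -0.35 ± 0.07 (edgeR adjusted p = 0.0031), beside 9.33% of all genes. For Nr1h3 the difference was 0.30 ± 0.11, which did not pass (edgeR adjusted p = 0.13). Without saringosterol replicate 3 the Nr1h3 difference was 0.44 and passed (edgeR adjusted p = 1.6e-05), and Rxra was lower by a log2 difference of -0.30 (edgeR adjusted p = 0.0057). Rxrb differed by a log2 difference of -0.22 ± 0.07 (edgeR adjusted p = 0.067), and by a log2 difference of -0.30 without saringosterol replicate 1 (edgeR adjusted p = 0.011). In hepatocytes 0 of 9 differed by edgeR, with 2 at an unadjusted p under 0.05 and 0 by DESeq2 and by limma-voom, beside 1.96% of all genes by edgeR.

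The genes that work with these receptors were taken as lists, chosen with earlier results of these data known. Of 17 tested LXR targets in microglia, 16 rose and 1 fell with saringosterol (median log2 fold change 0.74), beside 10.8% of all genes called in either direction. With GW 17 rose (median 1.89), beside 28.7%. In BMDM 14 of 17 rose with saringosterol (median 0.9) and 15 with GW (median 1.64), beside 10.7% and 10.4% of all genes. In hepatocytes 8 of 20 rose with GW (median 0.65), beside 1.11% of all genes. With saringosterol 1 of 20 fell there, beside 1.91%, namely the fatty acid synthase gene Fasn, by 0.54 ± 0.06. The median log2 fold change of all genes lay between -0.008 and 0 in these comparisons. Without saringosterol BMDM replicate 3, 15 of the 17 targets rose with saringosterol in BMDM (median 0.92) and 16 rose with GW (median 1.65). The shares of all genes called were then 10.5% and 15.8%. That comparison was chosen after the data were seen.

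Ch25h and Cyp27a1 encode enzymes whose products are oxysterol ligands of LXR. Ch25h, which makes 25-hydroxycholesterol, fell by 2.56 ± 0.16 on the log2 scale with GW in microglia (edgeR adjusted p = 5.8e-14) and by 0.74 ± 0.14 with saringosterol (edgeR adjusted p = 0.00028). In BMDM its log2 fold changes of -3.62 ± 1.45 with saringosterol (edgeR adjusted p = 0.18) and -3.9 ± 1.48 with GW (edgeR adjusted p = 0.17) did not pass, and without saringosterol replicate 3 that of saringosterol was -3.41 (edgeR adjusted p = 0.35). Cyp27a1, which makes 27-hydroxycholesterol, rose by 0.54 ± 0.08 with GW in BMDM (edgeR adjusted p = 0.00014) and fell by 0.46 ± 0.08 with saringosterol (edgeR adjusted p = 0.001). Without saringosterol BMDM replicate 3 these changes of Cyp27a1 were 0.54 (edgeR adjusted p = 2.7e-06) and -0.39 (edgeR adjusted p = 0.0016).

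Of 12 tested coactivator genes in microglia, 1 rose and 1 fell with saringosterol, beside 10.8% of all genes in either direction, and 2 rose and 3 fell with GW, beside 28.7%. Ncoa4, also known as the receptor that sends ferritin to autophagy, had 189 ± 14.9 CPM with saringosterol and 198 ± 6.18 CPM with GW, against 153 ± 3.73 CPM with vehicle, and rose by 0.31 ± 0.05 (edgeR adjusted p = 2.2e-05) and 0.37 ± 0.05 (edgeR adjusted p = 2.4e-07). It rose in BMDM as well, by 0.37 ± 0.06 with saringosterol (edgeR adjusted p = 0.00057) and 0.33 ± 0.06 with GW (edgeR adjusted p = 0.0014). Without saringosterol BMDM replicate 3 these rises of Ncoa4 were 0.40 (edgeR adjusted p = 4.4e-05) and 0.33 (edgeR adjusted p = 8.9e-05). In the repressor complex of NCoR and SMRT, 2 of 7 genes rose with GW in microglia, beside 28.7% of all genes called, namely the scaffold gene Tbl1x by 0.28 ± 0.05 (edgeR adjusted p = 1.2e-05) and the deacetylase gene Hdac3 by 0.17 ± 0.06 (edgeR adjusted p = 0.026). Tbl1x also rose with GW in hepatocytes, by 0.21 ± 0.04 (edgeR adjusted p = 0.0069), as 1 of 7 beside 1.11% of all genes. In vehicle-treated cells, on the CPM scaling of all 27 libraries, the related scaffold gene Tbl1xr1 had 24.7 CPM in hepatocytes, 102 CPM in microglia and 90.1 CPM in BMDM, whereas Tbl1x had 167, 95.9 and 94.5 CPM in the same cells and was highest in hepatocytes. Ctbp2, another corepressor gene, had 1.98 CPM in hepatocytes, 66.3 CPM in microglia and 55.7 CPM in BMDM.

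Among the other receptors that pair with RXR, Rara, a retinoic acid receptor, rose with GW by 0.37 ± 0.07 in microglia (edgeR adjusted p = 8.6e-05) and by 0.51 ± 0.08 in BMDM (edgeR adjusted p = 3e-04). Pparg, a receptor for fatty acids, had 168 ± 10.7 CPM in saringosterol-treated BMDM, against 136 ± 4.43 CPM with vehicle, and rose by 0.31 ± 0.06 (edgeR adjusted p = 0.002), and Thra, a thyroid hormone receptor, fell by 0.60 ± 0.12 (edgeR adjusted p = 0.0022). Without saringosterol BMDM replicate 3 the change of Pparg was 0.35 (edgeR adjusted p = 0.00013) and that of Thra was -0.55 (edgeR adjusted p = 0.0043). Of 9 tested receptors, 1 rose and 2 fell with GW in microglia, beside 28.7% of all genes. In BMDM 1 rose and 1 fell with saringosterol, beside 10.7% of all genes, and 1 rose and 1 fell with GW, beside 10.4%. Without saringosterol BMDM replicate 3, GW gave 2 that rose and 1 that fell, beside 15.8% of all genes. In vehicle-treated cells, 3 of 13 partners of RXR were higher and 4 lower in microglia than in BMDM, beside 46.5% of all genes called. In hepatocytes 7 of 13 were higher and 5 lower than in microglia, beside 73.5% of all genes. The CPM of the next values are on the scaling of all 27 libraries, so that they cannot be set beside the Pparg values above. Nr1h4, the bile acid receptor FXR, had 13.4 ± 0.372 CPM in vehicle-treated hepatocytes and 0.00933 CPM in microglia, and Ppara had 8.0 ± 0.746 CPM in hepatocytes and 0.0472 CPM in microglia. Pparg had 50.3 ± 1.11 CPM in microglia and 151 ± 6.8 CPM in BMDM, a log2 difference of -1.59 ± 0.07 (edgeR adjusted p = 3.9e-20).

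The genes most like each of 3 members were sought over the 27 libraries, after the mean of each cell type was subtracted, among 13498 genes with a mean of 1 CPM or more. Treatments and shared libraries enter these correlations, so they are descriptions. For Nr1h3 they were Atp6v1b2 (r = 0.807), Dph6 (0.806) and 2310039H08Rik (0.78). For Nr1h2 they were Fkbp8 (0.835), Sidt2 (0.826) and Zbtb22 (0.821), and for Rxra Abhd4 (0.938), Aldh2 (0.928) and Itm2c (0.915).

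The strand setting of the counting is not given, so reads from overlapping genes cannot be assigned with certainty. Nr1h3 shares 34 exon bases, 1.35% of its exons, with Gm13783 on the same strand. On the opposite strand, Ncor1 shares 82 bases with Pigl and 1 base with Ttc19, and Ncoa1 shares 68 bases, 0.79% of its exons, with 4921501I09Rik. These overlaps were counted on the exons that the deposited files list, in which the other 6 members share no base with another gene.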

How the data were processed

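RNA of 27 samples was sequenced after oligo-dT priming with a low-input kit, per the labels' protocols. Per the submitters' processing notes, bcl2fastq, STAR 2.5.1a and featureCounts 1.4.6-p5 were used with GRCm38; the annotation release is not given in the sources used here, and neither is the strand setting. The authors deposited raw counts per gene (55487 genes) and TPM in tables of the series, and counts, CPM and FPKM for each sample, with FPKM used here only as an alternative for ratios; the deposited CPM and FPKM were the authors' own scaling of those counts. At 30295862 to 41040268 counts per library a count of 0 allows up to 0.0731 to 0.099 CPM (3 counts), for counting error only.

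Groups came from the labels. Counts were scaled by TMM, filtered with filterByExpr and tested with edgeR 4.0.16 (robust quasi-likelihood F test, Benjamini-Hochberg adjustment, threshold 0.05) in R 4.3.3, over all genes that passed the filter. Treatments were tested in a fit of 9 libraries per cell type, and cell types and differences of response in a fit of 27. CPM in the text were computed here with TMM scaling, except marker sums, which use plain totals. Levels are compared between genes in deposited TPM. The routines were tested on simulated data. Alternatives were DESeq2 1.42.0, limma-voom (limma 3.58.1), other scalings, no filter, a replicate block, other sets of libraries and each library left out.

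The 9 members and all lists were chosen with earlier results of these data known. All members are named; of each list, up to 3 called genes per comparison with the largest change and a mean of at least 1 CPM, from which those given in the text were taken. Some list and marker genes are not reported here.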

Additional observations from a re-analysis of the deposited data

Results flagged for a closer look

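Each of the following results marks a response that differed between cell types by a test of the difference itself. The saringosterol response of Nr1h3 was lower in hepatocytes than in microglia by a difference of log2 fold changes of -0.52 and lower in hepatocytes than in BMDM by one of -0.59. The GW response of Rxrb was lower in microglia than in BMDM, at -0.43. The GW response of Rxra was lower in hepatocytes than in microglia, at -0.37. The first of these was lost in 7 of 18 alternatives, and the other 3 held in all 18. Medium and cell type cannot be told apart where hepatocytes enter.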

How the results depend on the processing

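Of the single-gene values, 2437 kept their direction and side of the threshold, 50 lost the call, 29 gained one and 7 reversed; of the counts and ratios, 272 stayed within 1.5 times or 1 SD and 37 moved, and the cause was not tested. The 7 reversals came with plain totals, for hepatocytes against microglia in Nr1h2 (0.24), Rxra (0.18), Ncor1 (0.19) and Nrip1 (0.20) and against BMDM in Nr1h2 (0.19), Rxra (0.31) and Ncor1 (0.05). Members called changed as follows. For GW in BMDM, 0 became 1 in the fit of all 27 libraries and with no filter, and was 0 to 1 with a library left out. For GW in microglia, 4 became 2 in the fit of all 27 libraries. For saringosterol in BMDM, 1 became 0 with limma-voom, and was 0 to 1 with a library left out. For saringosterol in hepatocytes, 0 became 1 with DESeq2 and with the replicate block (Rxra, edgeR adjusted p = 0.027), and was 0 to 1 with a library left out. For saringosterol against GW in BMDM, 1 became 2 with DESeq2, 3 in the fit of all 27 libraries and 2 with no filter, and was 1 to 2 with a library left out. For hepatocytes against microglia, 9 became 5 with no filter, and was 6 to 9 with a library left out. For the GW response of hepatocytes, 0 against BMDM became 1 with DESeq2 (0 to 1 with a library left out), and 1 against microglia became 2 with no filter and with plain totals (1 to 2). For the saringosterol response of hepatocytes against microglia, 1 became 0 with limma-voom and was 0 to 1 with a library left out. Equal replicate numbers did not mark pairs: correlations of deviations ran from -0.148 to 0.111. Under the replicate block, counts also went to 7 for hepatocytes against microglia and to 3 for GW in microglia, and no other count changed. Where 1 library was left out, its group's remaining libraries share the spread of the fit. Low counts were seen for Rxrg alone, at 0 to 132 per library: the other 8 members had 736 to 6277 counts per library.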
